A study of Mus musculus with 6 samples.

Results

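The messenger RNAs of 60 genes named as translation initiation or elongation factors, of 38776 genes counted, were followed in 661W cells with and without serum. They were chosen by gene name alone, as every name that starts with Eif or Eef and a digit, leaving out the eIF2 kinases named Eif2ak and names with the pseudogene mark -ps. Of these, 51 carry the name of an initiation factor or one of its binders and 8 that of an elongation factor or its modifiers, and Eif2c5, which the name rule also takes, is annotated as a long intergenic RNA. The tested cells were kept for 72 h in medium with 0% serum (serum-starved), and they were set against cells in 10% fetal calf serum (serum-fed). By the labels, cells of passages 24, 26 and 27 gave 1 culture of each kind, and the passages are taken here as replicates. So n = 3 per condition, and each starved culture has a fed partner of its passage. Both groups are the same mouse line, a single immortalized line from a retinal tumor driven by the SV40 T antigen, grown in DMEM, and it stands for cone photoreceptors only as far as its markers allow. Of 12 cone markers, 4 reached a mean of 0.25 CPM (counts per library, scaled to 1e6 counts) in both conditions and Arr3 and Rxrg had no count in any library.

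Protein synthesis starts when initiation factors load the small ribosomal subunit with the initiator tRNA, bring it to the capped end of the messenger and find the start codon. Elongation factors then deliver each aminoacyl-tRNA and move the ribosome along. Serum growth factors act on this machinery mainly through mTORC1 and the MAP kinases, which control the cap-binding factor eIF4E, the ternary complex and eEF2. These libraries measured messenger RNA and neither protein nor the rate of translation.

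Libraries held 71970076 to 87178722 counts. Levels are given as CPM, and log2 ratios and fold changes are starved over fed, so a negative value means less in starved cells. Fold changes come from the quasi-likelihood test of edgeR on 16168 genes, with TMM scaling and the passage as a block. Each has a standard error (SE), the size of the log2 fold change divided by the square root of the F statistic. A gene was called at a Benjamini-Hochberg adjusted p under 0.05 over all these genes. Of the 60 genes, 57 had enough counts to be tested. Eef1a2, the form of eEF1A of muscle and neurons, and Eif4e1b, an oocyte form of eIF4E, had 0 counts in all 6 libraries, which allows up to 0.0344 to 0.0417 CPM by counting error alone, and Eif2c5 had 2 counts in all.

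Starved 661W cells held less messenger RNA of several translation factors, and no member was called higher. Called lower were Eef1b2 and Eef1g of the elongation exchange complex eEF1B, Eif2b3 of the initiation exchange complex eIF2B, and the scaffold gene Eif4g3, with log2 fold changes between −0.58 and −0.92. These are 4 of 57 members tested, where 1.6% of all genes tested were called lower. For higher calls the member count was 0 of 57, against 3.48% of all genes, with 0 members higher at an unadjusted p under 0.05 (13.1% of all genes) and 0 called higher by DESeq2 (6.88%) or limma-voom (3.93%). At an adjusted p under 0.01, the level of the study's methods, edgeR called 0 members (0.847% of all genes), limma-voom 0 (1.0%) and DESeq2 with the passage 8 (7.24%).

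Below the level of single calls, the members lay mostly on the lower side. At an unadjusted p under 0.05, 32 of 57 were lower in starved cells, where 11.1% of all genes were. The fitted change was below 0 for 54 of 57 members (50.2% of all genes), and the ratio was below 0 in all 3 passages for 43 of 57 (24.2% of all genes). The median log2 fold change was −0.34 over the members and −0.00 over all genes tested. In 14 of 57 members all 3 starved libraries were below all 3 fed libraries in CPM, where 4.89% of all genes were, and in 1 member, Eif4ebp3, all 3 were above (7.94% of all genes). Together the 60 genes took 1.97%, 1.56% and 1.49% of all counts in starved cells of passages 24, 26 and 27, against 2.28%, 2.26% and 2.04% in fed cells of the same passages. The size of the shift differed between passages, with member medians of −0.20 in passage 24, −0.55 in passage 26 and −0.30 in passage 27, and in 41 of 57 members passage 26 gave the lowest ratio.

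**Figure D1:**
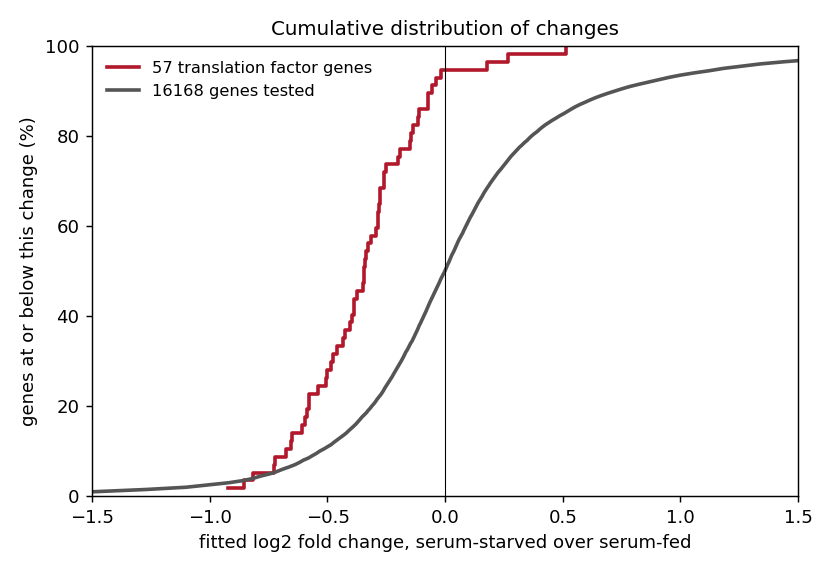
Cumulative share (y axis, %) of the 57 tested translation factor genes (red) and of all 16168 genes tested (grey) by fitted log2 fold change of serum-starved over serum-fed cells (x axis). The red line lies left of the grey one over most of the range, with medians of −0.34 and −0.00, and ends at 0.51, and all genes reach beyond the window drawn.

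The calls depended on the passages and on the model, while the median of the members stayed below 0 in every setting tried (−0.23 to −0.40). DESeq2 with the passage called 19 members lower (5.56% of all genes) and limma-voom 6 (2.07%), and both sets held the 4 genes above. Without passage 26, edgeR called 0 of 57 members lower (0.66% of all genes), with 11 at an unadjusted p under 0.05. Without passage 27 it also called 0 (0.399%), with 19 at an unadjusted p under 0.05, and without passage 24 it called 9 (3.13%), the 4 among them. With the passage left out of the edgeR model 0 members and 0 genes of any kind were called lower, and 10 members had an unadjusted p under 0.05. For the unadjusted counts of 11, 19 and 10 members, the share over all genes is not given here. Fed cells varied too, with the highest fed library a median of 1.35 times the lowest. In 34 of 57 members that spread was larger than the fitted change, and the share over all genes is not given. The fed spread includes differences between passages, which the block takes out of the test.

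**Figure D2:**
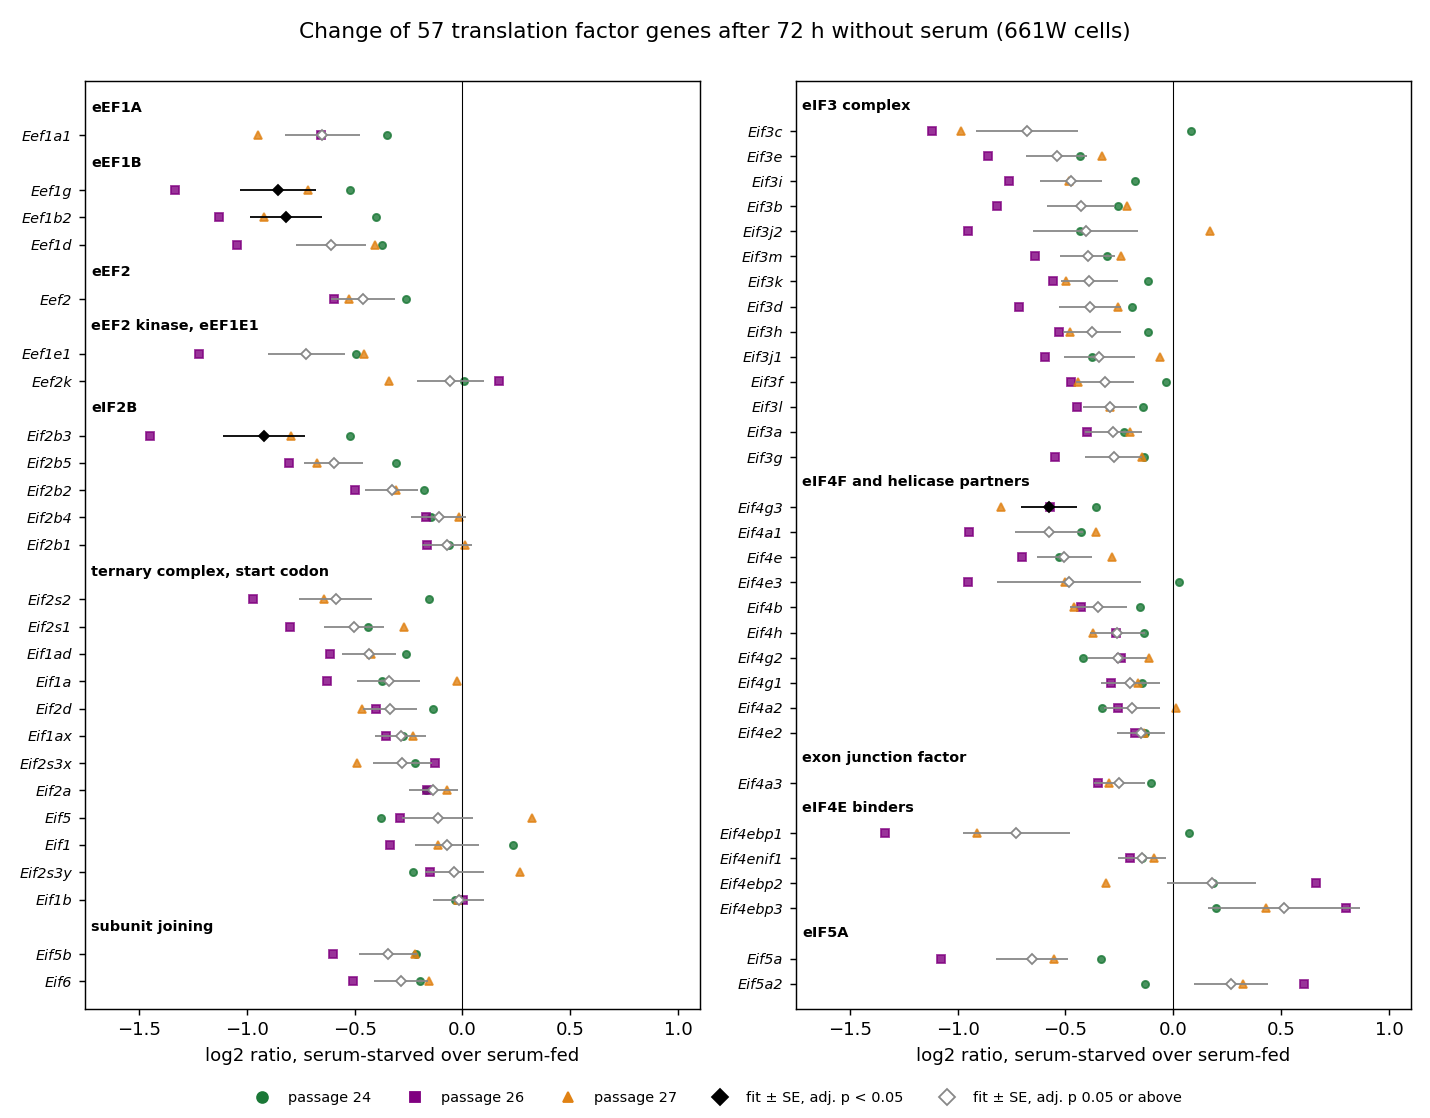
Log2 ratio of serum-starved over serum-fed cells (x axis) for the 57 tested genes, grouped by role; colored points are the ratios within passages 24, 26 and 27, and diamonds with bars are the fitted change ± standard error, filled where the adjusted p is under 0.05. Nearly all diamonds lie left of 0, the 4 filled ones are Eef1g, Eef1b2, Eif2b3 and Eif4g3, and Eif5a2, Eif4ebp2 and Eif4ebp3 lie to the right.

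Among the elongation factors, eEF1A carries aminoacyl-tRNA to the ribosome, eEF1B reloads it with GTP, and eEF2 drives translocation. Per kilobase of merged exons, Eef1a1 had the highest mean level of all members over the 6 libraries (1783 CPM per kilobase), followed by Eef2 (690 CPM per kilobase), and Eif5a (215), Eif1 (204) and Eef1b2 (195) came after them. Within each condition the levels of Eef1a1 and Eef2 lay far apart compared with their spread, while those of Eif5a, Eif1 and Eef1b2 were close and their order was not tested.

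Eef1a1 had 4351, 3413 and 2946 CPM in starved cells of passages 24, 26 and 27, against 5328, 5133 and 5503 CPM in fed cells. All starved libraries lay below all fed ones, and the 3 fed libraries were close to each other while the starved ones were spread. The fit gave a log2 fold change of −0.65 (SE 0.17), which did not pass (adjusted p = 0.0765, edgeR). Eef2 had 2296, 1788 and 1858 CPM in starved cells, against 2646, 2585 and 2589 CPM in fed cells, again with no overlap (log2 fold change −0.46, SE 0.15, adjusted p = 0.118, edgeR). Both genes are therefore described as lower in every passage without having passed the edgeR test. DESeq2 with the passage called both lower (adjusted p = 0.00241 for Eef1a1 and 0.0175 for Eef2). Without the passage DESeq2 called neither (0.175 and 0.3265).

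The alpha and gamma subunits of eEF1B had the lowest changes of the elongation genes. Eef1b2, which codes for the catalytic alpha subunit (chr1:63176825-63180486, GRCm38), had 482, 311 and 319.9 CPM in starved cells of passages 24, 26 and 27, against 612, 649 and 587 CPM in fed cells. It fell without overlap between the groups, with a log2 fold change of −0.82 (SE 0.17, adjusted p = 0.0402, edgeR). Eef1g, the gamma subunit that anchors the complex (chr19:8967041-8978479), had 389, 184 and 213 CPM in starved cells, against 537, 443 and 339.6 CPM in fed cells. Here starved cells of passage 24 were above fed cells of passage 27, so the groups overlapped although each starved culture lay below its own fed partner. The change was −0.86 on the log2 scale (SE 0.18, adjusted p = 0.0404, edgeR), and within passages it was −0.52, −1.33 and −0.72. Eef1d, the delta subunit and a second exchange factor, had 288, 146 and 159.6 CPM in starved cells, against 359, 288 and 205 CPM in fed cells, and did not pass (log2 fold change −0.61, adjusted p = 0.0763, edgeR).

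Eef1e1, known as AIMP3, belongs to the complex of aminoacyl-tRNA synthetases and is named for its likeness to eEF1 subunits. It had 45.1, 27.4 and 23.7 CPM in starved cells, against 61.0, 61.1 and 31.5 CPM in fed cells, lower in each passage (log2 fold change −0.72, SE 0.18, adjusted p = 0.0625, edgeR). Eef2k, the kinase that inactivates eEF2, lay at 34.2, 30.7 and 28.7 CPM in starved cells, against 32.7, 26.1 and 35.3 CPM in fed cells, with passages going both ways (log2 fold change −0.06). The kinase thus stands apart from the elongation genes around it by its value, and that difference was not tested. Of the 7 elongation genes tested, 2 were called lower and all 7 had a fitted change below 0, with a median of −0.65, where 1.6% of all genes were called lower and 50.2% were below 0.

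eIF5A carries the modified residue hypusine and helps ribosomes past hard stretches in elongation as well as in termination. Eif5a had 670, 307 and 269 CPM in starved cells of passages 24, 26 and 27, against 813, 618 and 383 CPM in fed cells, with all ratios below 0 (log2 fold change −0.65, SE 0.17, adjusted p = 0.0689, edgeR). Its paralog Eif5a2 had 25.6, 53.6 and 40.8 CPM in starved cells, against 26.9, 33.6 and 31.6 CPM in fed cells, with a fitted change of 0.27 (SE 0.17, adjusted p = 0.384, edgeR). Neither gene passed. The ratio of Eif5a to Eif5a2 counts was 26.2, 5.74 and 6.60 in starved cells, against 30.2, 18.4 and 12.1 in fed cells, lower in each passage, and it was also lower in the later passages within each condition.

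**Figure D3:**
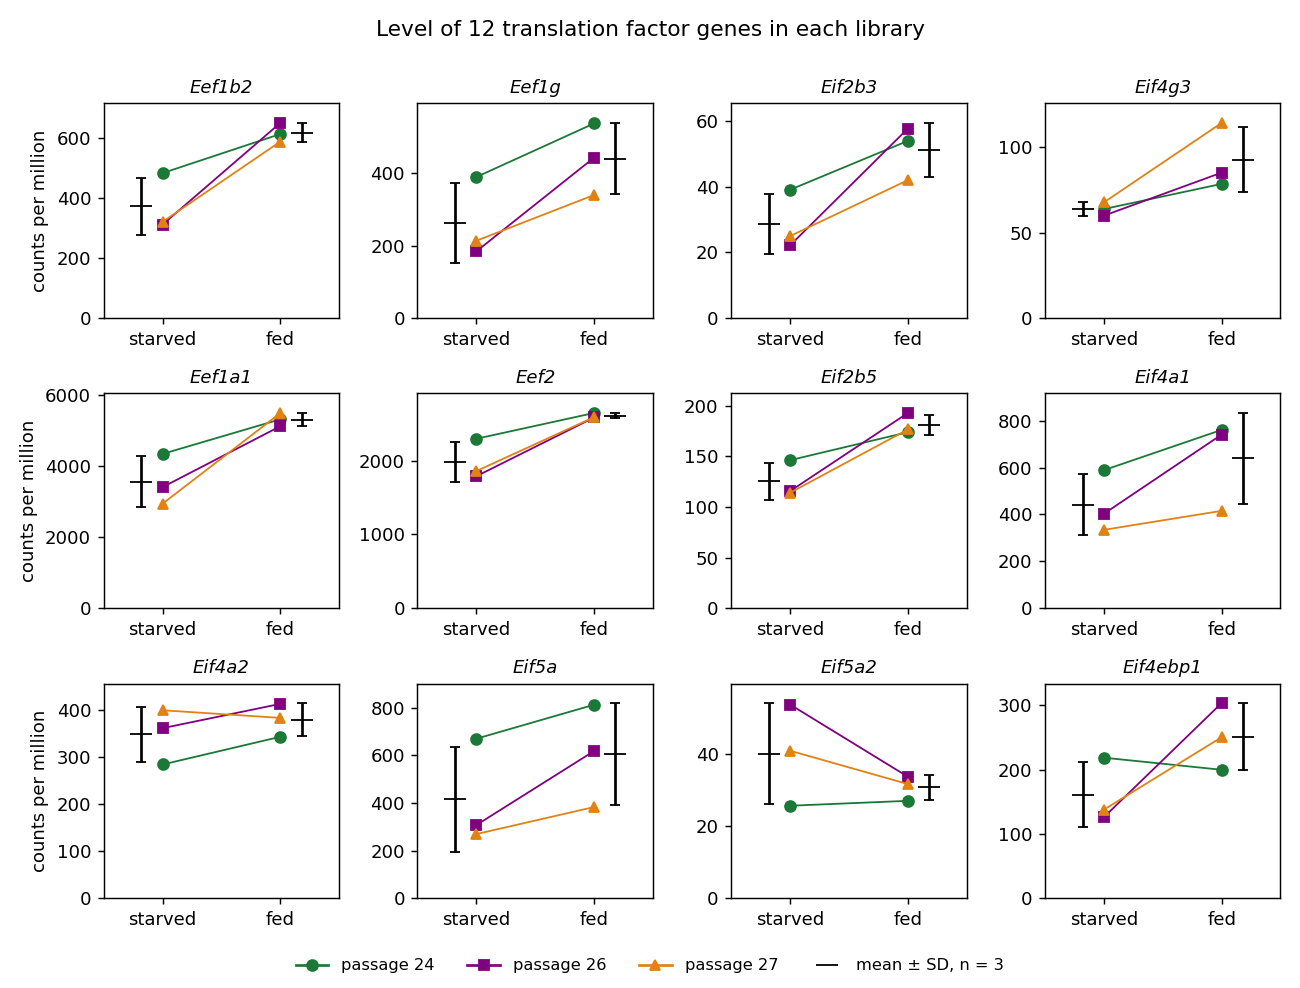
CPM (y axis, from 0) of 12 translation factor genes in serum-starved (left) and serum-fed (right) cells; each line joins the cultures of 1 passage and black bars are mean ± SD (n = 3). Starved points lie below their fed partners in all passages for Eef1b2, Eef1g, Eif2b3, Eif4g3, Eef1a1, Eef2, Eif2b5, Eif4a1 and Eif5a, and not in all for Eif4a2, Eif5a2 and Eif4ebp1.

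eIF2 brings the initiator tRNA as a ternary complex with GTP, and eIF2B recycles it after each round. The phosphorylated alpha subunit of eIF2 blocks eIF2B, which is how stress kinases slow initiation. Within eIF2B the gamma and epsilon subunits, Eif2b3 and Eif2b5, form the catalytic part, and Eif2b1, Eif2b2 and Eif2b4 (alpha, beta, delta) the regulatory part.

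Eif2b3 (chr4:117019402-117087306) had 39.1, 22.1 and 24.97 CPM in starved cells of passages 24, 26 and 27, against 54.0, 57.7 and 42.0 CPM in fed cells. The groups did not overlap, and Eif2b3 fell by 0.92 on the log2 scale, the lowest change of all members (SE 0.19, adjusted p = 0.0408, edgeR). Eif2b5 had 146, 116 and 114 CPM in starved cells, against 174, 193 and 177 CPM in fed cells, and lay just outside the call (log2 fold change −0.60, SE 0.14, adjusted p = 0.0516, edgeR). The regulatory subunits had smaller fitted changes, −0.07 for Eif2b1, −0.33 for Eif2b2 and −0.11 for Eif2b4, none called. Counts of Eif2b3 were 0.964, 0.643 and 0.728 times those of Eif2b4 in starved cells, against 1.25, 1.56 and 1.25 times in fed cells. Counts of Eif2b5 were 2.14, 2.04 and 2.29 times those of Eif2b1 in starved cells, against 2.54, 3.18 and 3.69 times in fed cells. Both ratios were lower in all 3 starved libraries than in any fed one, as a description of pairs picked after the values were seen.

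Of the genes of eIF2 itself and its partners in start codon selection, 12 were tested. All 12 had a fitted change below 0 (median −0.28), where 50.2% of all genes did. At an unadjusted p under 0.05, 6 were lower (11.1% of all genes), and none was called. Eif2s1, the alpha subunit that the stress kinases phosphorylate, had 169.5, 126 and 99.8 CPM in starved cells, against 221, 210.3 and 117 CPM in fed cells, lower in each passage (log2 fold change −0.50, adjusted p = 0.0823, edgeR). Fed cells of passage 27 were nearer to the starved libraries than to the other fed ones. For the gamma subunit, the X-linked Eif2s3x had 34.7, 36.0 and 32.0 CPM in starved cells, against 38.8, 37.6 and 43.5 CPM in fed cells (log2 fold change −0.28), and the Y-linked Eif2s3y had 48.7, 77.8 and 73.1 CPM, against 54.7, 82.4 and 59.0 CPM (log2 fold change −0.04). Eif2s3x was lower in each passage and Eif2s3y was not.

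Eif1, which guards the choice of start codon, had 556, 364 and 366 CPM in starved cells, against 455, 439 and 383 CPM in fed cells, above its partner in passage 24 and below it in passages 26 and 27 (log2 fold change −0.07). Its paralog Eif1b had 54.0, 44.2 and 42.6 CPM in starved cells, against 53.1, 42.1 and 42.0 CPM in fed cells (log2 fold change −0.02). These belong with Eif2s3y among the members with the smallest fitted changes. Eif1 and Eef1b2 have like levels per kilobase, and only Eef1b2 was called, though the difference between them was not tested.

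eIF3 is the large scaffold that holds the small subunit ready for the messenger. All 14 genes of eIF3 subunits had a fitted change below 0 (50.2% of all genes), between −0.28 and −0.68 with a median of −0.39. At an unadjusted p under 0.05, 10 were lower (11.1% of all genes), and none was called. Eif3e, with the smallest p, had 152, 118 and 112 CPM in starved cells, against 197, 205 and 136 CPM in fed cells (log2 fold change −0.54, SE 0.14, adjusted p = 0.0697, edgeR). It was lower in each passage, as were all subunits except Eif3c and Eif3j2. Eif3c had the lowest fitted change, −0.68, and its passages did not go one way, since the ratio was at 0.08 in passage 24 and at −1.12 and −0.98 in passages 26 and 27 (SE 0.24).

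The cap complex eIF4F joins eIF4E, which holds the cap, the helicase eIF4A and the scaffold eIF4G. Eif4g3 (chr4:137993022-138208508), one of the scaffold genes, had 63.9, 60.0 and 67.8 CPM in starved cells of passages 24, 26 and 27, against 78.6, 85.3 and 114 CPM in fed cells. It fell without overlap between the groups (log2 fold change −0.58, SE 0.13, adjusted p = 0.0491, edgeR), the call nearest to the threshold. It lost the call when only genes with 10 counts in every library were tested (adjusted p = 0.0526, edgeR), when library totals replaced TMM (0.0635) and when TMM factors were made without translation genes (0.0513). The main scaffold gene Eif4g1 had 1478, 1188 and 1015 CPM in starved cells, against 1570, 1388 and 1100 CPM in fed cells (log2 fold change −0.20). Counts of Eif4g1 were 23.1, 19.8 and 15.0 times those of Eif4g3 in starved cells, against 20.0, 16.3 and 9.61 times in fed cells, higher in each passage.

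Eif4e had 88.4, 81.5 and 82.6 CPM in starved cells, against 123, 126.5 and 97.6 CPM in fed cells, without overlap, and did not pass (log2 fold change −0.50, SE 0.13, adjusted p = 0.0649, edgeR). Its paralog Eif4e2, a repressive cap binder, had a fitted change of −0.15. The helicase gene Eif4a1 had 589.5, 403 and 334 CPM in starved cells, against 762, 742 and 416 CPM in fed cells, lower in each passage (log2 fold change −0.58, SE 0.16, adjusted p = 0.0796, edgeR). Eif4a2, its paralog, had 284, 361 and 399 CPM in starved cells, against 342, 412 and 382.5 CPM in fed cells (log2 fold change −0.19). The ratio of Eif4a1 to Eif4a2 counts was 2.08, 1.12 and 0.839 in starved cells, against 2.23, 1.80 and 1.09 in fed cells, so Eif4a2 had more counts than Eif4a1 only in starved cells of passage 27. Eif4a3, which belongs to the exon junction complex and not to the cap complex, had 134, 99.0 and 99.7 CPM in starved cells, against 138, 120.3 and 119 CPM in fed cells (log2 fold change −0.25).

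The eIF4E-binding proteins hold eIF4E away from eIF4G until mTORC1 phosphorylates them. Eif4ebp1 had 219, 126 and 138 CPM in starved cells of passages 24, 26 and 27, against 199.9, 304 and 251 CPM in fed cells. Passage 24 went the other way from passages 26 and 27, and the fit gave −0.73 with a wide SE of 0.25 (adjusted p = 0.132, edgeR). Eif4ebp2 had 20.7, 24.1 and 24.1 CPM in starved cells, against 17.5, 14.5 and 29.0 CPM in fed cells (log2 fold change 0.18). Eif4ebp3 was near the low end of what was tested, with 0.385, 0.533 and 0.356 CPM in starved cells, against 0.320, 0.282 and 0.249 CPM in fed cells (log2 fold change 0.51, SE 0.35, adjusted p = 0.4196, edgeR). Eif4ebp2 went both ways over the passages, and Eif4ebp3 is the only member of 57 higher in all 3, where 22.7% of all genes were.

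Last in initiation, Eif5b joins the large subunit to the loaded small one. It had 309.7, 240.2 and 228 CPM in starved cells, against 345, 348 and 257 CPM in fed cells, lower in each passage (log2 fold change −0.34, SE 0.14, adjusted p = 0.173, edgeR). Eif6, which keeps the large subunit from joining too early, had a fitted change of −0.29. Of the 50 tested genes with initiation factor names, 2 were called lower (1.6% of all genes), 0 were called higher (3.48%), and 47 had a fitted change below 0 (50.2%), with a median of −0.33. The elongation and initiation medians were not compared by a test.

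In human cells, several translation factors are made from TOP messengers, whose cap is followed by a tract of pyrimidines and whose translation depends on mTORC1. Of 9 members known as such from human, 2 were called lower (Eef1b2 and Eef1g), where 1.6% of all genes were. All 9 had a fitted change below 0 (50.2% of all genes) and an unadjusted p under 0.05 (11.1% of all genes were lower at that level), and their median was −0.54. Over all 57 members tested, 54 had a fitted change below 0 and 32 were lower at that level, with a median of −0.34. The difference between these 9 and the other members was not tested. Their summed level was 8757, 6585 and 6287 CPM in starved cells of passages 24, 26 and 27, against 10510, 10130 and 10270 CPM in fed cells, most of it from Eef1a1 and Eef2.

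Promoter sequences of RefSeq on GRCm38.p6, from 250 bases before to 50 after a start, were found for 45 of the members. The letters CACGTG, the same on both strands and known as the E-box read by Myc and related factors, were in a promoter of 12 of these 45 genes (26.7%), and in 8.09% of 27025 genes of the table. Members with and without these letters had like changes, with medians of −0.30 (12 genes) and −0.33 (32 genes tested). A C at the start followed by at least 4 bases that are each C or T was found in 2 of the 45 (Eif2s3x and Eif3f), and in 3.01% of all genes. Eef2 and Eef1b2, on the list of TOP messengers known from human, had a promoter here and did not match. The match was read at annotated starts only, so these counts do not tell which messengers carry the tract. None of the 4 genes called lower was among the 12 with CACGTG, and of these 4, Eef1b2 and Eif4g3 had a promoter in the table. Windows are shown as examples of the letters in genes described above, none of them called: the abundant Eef2, the cap binder Eif4e and the helicase Eif4a1, the paralog with a fitted change above 0 (Eif5a2), and 1 start with the pyrimidine tract (Eif3f). Capitals mark CACGTG, or in Eif3f the tract.
Eef2, chr10:81176570-81176611, plus strand: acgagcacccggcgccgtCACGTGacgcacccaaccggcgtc
Eif4e, chr3:138527186-138527227, plus strand: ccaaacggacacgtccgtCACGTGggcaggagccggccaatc
Eif4a1, chr11:69672589-69672630, minus strand: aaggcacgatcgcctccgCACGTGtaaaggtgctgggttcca
Eif5a2, chr3:28781142-28781183, plus strand: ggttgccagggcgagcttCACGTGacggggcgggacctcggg
Eif3f, chr7:108934400-108934429, plus strand: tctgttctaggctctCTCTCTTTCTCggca
The first base of the letters lies at −43 from the start in Eef2, −64 in Eif4e, −189 in Eif4a1 and −117 in Eif5a2. Eif4e and Eif5a2 each hold the letters once more, at −228 and −142, in windows not shown. A match of letters is a description of these windows. Myc itself had 112.5, 30.1 and 30.2 CPM in starved cells, against 123, 118 and 48.6 CPM in fed cells, lower in each passage, and did not pass (log2 fold change −0.97, SE 0.31, adjusted p = 0.115, edgeR).

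Among other genes of the pathway, the poly(A) binding proteins fell and the helicase inhibitor Pdcd4 rose. Pabpc1, which bridges the poly(A) tail to eIF4G, had 631, 424 and 419.9 CPM in starved cells of passages 24, 26 and 27, against 928, 895 and 876 CPM in fed cells. It fell without overlap (log2 fold change −0.96, SE 0.16, adjusted p = 0.0198, edgeR). Pabpc4 had 102, 55.6 and 63.0 CPM in starved cells, against 140.3, 114 and 94.4 CPM in fed cells (log2 fold change −0.75, adjusted p = 0.0346, edgeR), so 2 of 5 genes of this list were called, both lower (1.6% of all genes). Pdcd4, whose protein blocks eIF4A and is removed after mTORC1 and S6 kinase signaling, had 25.6, 50.8 and 71.9 CPM in starved cells, against 11.4, 22.3 and 43.3 CPM in fed cells. It rose in each passage (log2 fold change 0.97, SE 0.15, adjusted p = 0.0161, edgeR), although the groups overlapped since its level also differed between passages. Without passage 27 Pabpc1 was no longer called (adjusted p = 0.0977, edgeR), nor was Pabpc4 (0.104), which was not called without passage 26 either (0.1102), while Pdcd4 was called whichever passage was left out. Without the passage in the edgeR model none of them was called. DESeq2 without the passage still called Pabpc1 (adjusted p = 0.0215), and not Pabpc4 (0.397) or Pdcd4 (0.5698). Pdcd4 was the only called gene of 19 tested from the list of mTORC1 and its controllers, where 3.48% of all genes were called higher. That list had a median of 0.14 with 12 genes above 0 and 7 below.

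The main edgeR fit called no gene in the other lists. DESeq2 with the passage did call Wars and Ppp1r15a lower (adjusted p = 0.000949 and 0.00482) and Eif2ak3 higher (0.00431). Without the passage DESeq2 kept Wars (0.0467) and lost Ppp1r15a (0.4714) and Eif2ak3 (0.2503). Over all genes tested, 50.2% had a fitted change below 0 and 11.1% were lower at an unadjusted p under 0.05. Fitted changes of these lists lay mostly to one side, but passage 24 differed from the others in some lists. All 22 genes of the cytosolic tRNA synthetase list had a fitted change below 0 (median −0.54, 18 at an unadjusted p under 0.05). The list also holds Aimp1 (−0.59) and Aimp2 (−0.58), which belong to the synthetase complex and are not synthetases. By passage, 15 of 22 were below 0 in passage 24 (median −0.12), and all 22 in passage 26 (median −0.99) and in passage 27 (median −0.57). Wars, the tryptophan enzyme, had the smallest p of the list, with 103, 61.4 and 65.2 CPM in starved cells, against 116, 172 and 163 CPM in fed cells (log2 fold change −1.05, adjusted p = 0.0555, edgeR). All 10 genes of eIF2 phosphatases, ATF4 and its targets had a value below 0 in the fit (median −0.60, 5 at an unadjusted p under 0.05), with Ppp1r15a, the inducible phosphatase subunit, at −0.78 (adjusted p = 0.0621, edgeR). Their passages did not go one way: in passage 24 only Ppp1r15a and Ppp1r15b were below 0 and Atf4 with its 7 targets were higher in starved cells (list median 0.31), whereas all 10 were below 0 in passage 26 (median −1.25) and passage 27 (median −0.77). The 4 eIF2 kinases were all above 0 (median 0.10), and Eif2ak3, known as PERK, had 28.8, 34.9 and 46.5 CPM in starved cells, against 21.4, 18.8 and 27.3 CPM in fed cells (log2 fold change 0.64, adjusted p = 0.0581, edgeR). Starved libraries of Eif2ak3 all lay above the fed ones, unlike most of the factors.

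The main edgeR fit called no gene in the remaining lists either, and 50.2% of all genes tested had a fitted change below 0. DESeq2 called Gspt1, Tufm, Dph5 and Myc lower with the passage (adjusted p = 0.0173, 0.0143, 0.022 and 0.0145). Without the passage DESeq2 called none of them. All 8 genes of termination, recycling and rescue were below 0 (median −0.38), with the release factor gene Gspt1 at −0.44 (adjusted p = 0.0843, edgeR), and so were all 7 of mitochondrial initiation and elongation (median −0.45), with Tufm, the mitochondrial counterpart of eEF1A, at −0.54 (adjusted p = 0.0697, edgeR). All 9 enzymes that place hypusine on eIF5A or diphthamide on eEF2 were below 0 (median −0.35), with Dph5 at −0.73 (adjusted p = 0.109, edgeR). Of 5 genes on the MAP kinase route to eIF4E, 3 were below 0, Myc among them, and 2 above.

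**Figure D4:**
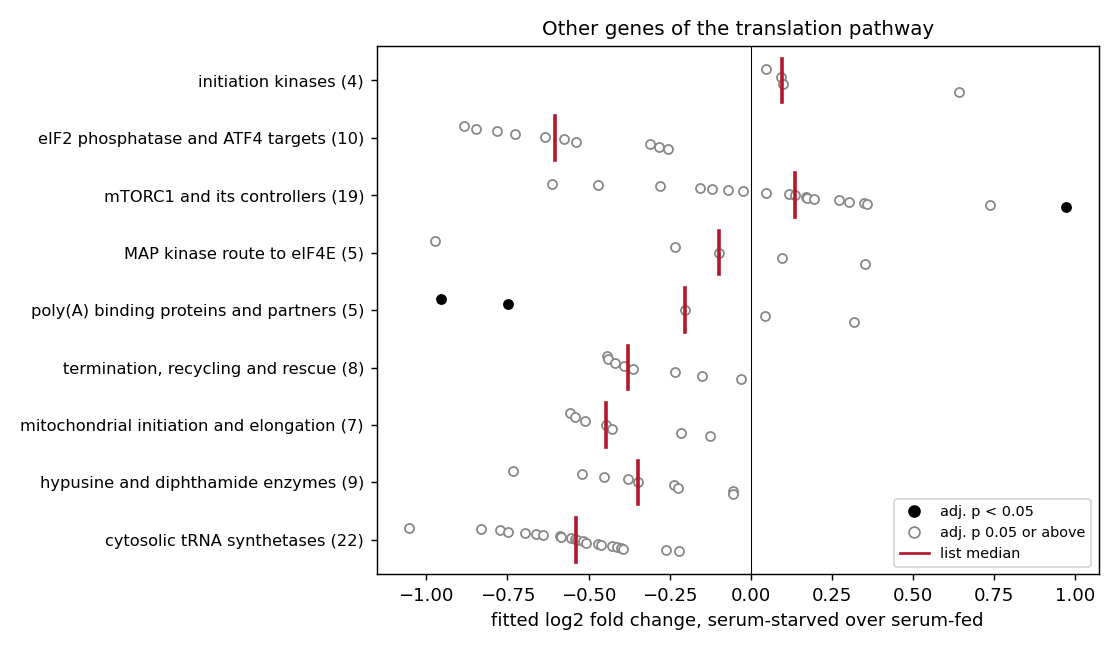
Fitted log2 fold change of serum-starved over serum-fed cells (x axis) for the genes of 9 lists outside the translation factors (rows, number tested in brackets); filled points have an adjusted p under 0.05 and red lines are list medians. The filled points are Pdcd4 at 0.97 and Pabpc1 and Pabpc4 at −0.96 and −0.75, and all tRNA synthetase genes lie left of 0.

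Genes of other cell types moved alongside these results. Over all genes tested, 3.48% were called higher and 1.6% lower. Of 7 fibroblast markers tested 5 were called higher, with a summed level of 2523 to 8159 CPM in starved cells, against 965 to 3197 CPM in fed cells. Lum had only 5 counts over all 6 libraries, with 0 in all fed ones, and was not tested. Of 7 muscle markers tested 5 were called higher, with 38.4, 553 and 212 CPM in starved cells of passages 24, 26 and 27, against 49.4, 125 and 63.1 CPM in fed cells, and Myf5 had no count. Of 10 proliferation markers 1 was called, lower, with summed levels of 3075 to 3213 CPM in starved cells and 3074 to 3504 CPM in fed cells. Of 7 Müller glia markers tested 2 were called higher (Slc1a3 at 2.81 and Apoe at 1.09) and 1 lower (Sox9 at −1.01), with summed levels of 1820 to 3109 CPM in starved cells and 1977 to 4280 CPM in fed cells, most of it from Vim, and Aqp4 had no count. Of 6 cone markers tested 1 was called, higher, with sums of 5.07 to 6.56 CPM in starved cells and 3.85 to 4.81 CPM in fed cells. The ganglion cell markers summed to 29.0 to 54.9 CPM in starved cells and 8.48 to 25.8 CPM in fed cells, most of it from Thy1. Pou4f2 was at 0, and edgeR called none of the 5 tested. At an unadjusted p under 0.05, 1 of them, Thy1, was higher (13.1% of all genes), and Sncg had a fitted change of −0.96. The muscle sum and the translation factor genes both moved most in passage 26, and the part of these cells in the result was not tested. In such bulk libraries, fewer cells of a type and less RNA per cell cannot be told apart. Reads shared by near-identical copies could be lost or split in counting, which bears on Eef1a1, Eif1, Eif4a1, Eif5a, Eif2s3x and Eif2s3y, and Eif4ebp3 lies beside Ankhd1, with which joined transcripts are known.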

How the data were processed

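The authors aligned polyA-selected, stranded single-end reads of 75 bases with STAR to GRCm38/mm10, counted them per gene with HTSeq (union mode, reverse strand) and deposited raw counts, 1 column per library, with versions not given in the sources used here. A second deposited table holds the authors' own DESeq2 comparison and was not used. Of 38803 genes, 27 with names turned into dates were left out.

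Counts were tested with edgeR 4.0.16 in R 4.3.3 (TMM, filterByExpr, quasi-likelihood F-test, passage as block), with a common biological coefficient of variation of 0.2 over 16168 genes. Libraries of a passage deviated together from their condition means (r of 0.675, 0.273 and 0.605, against at most −0.147, 0.251 and −0.0481 with another passage), and the labels give the passages. CPM used library totals and ratios within passages used TMM. Lengths and positions are those of GENCODE M21. DESeq2 1.42.0, limma 3.58.1 and other scalings and filters were alternatives. P-values of the main fit weigh the starved-to-fed change against its spread over the 3 passages. They do not weigh it against the spread between cultures of 1 condition.

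Named with all values were called members, the smallest p of each role, the 3 highest levels per kilobase and set paralogs. Of each pathway list its called genes and smallest p were named, with Ppp1r15a, Gspt1, Tufm and Dph5 given without library values. Eef1d, Eef2k, Eif2b5 and the other eIF2B subunits, Eif3c, Eif3j2, Eif4e, Eif4e2, Eif4g1 and Eif6 were added after their values were seen. The members and lists were chosen with earlier results of these data known.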

Additional observations from a re-analysis of the deposited data

How the results depend on the processing

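The number of members called lower was 4. It was 19 in DESeq2 with the passage (5.56% of all genes), 16 with no filter on low counts (2.87% of all genes), 0 in edgeR with no replicate block (0% of all genes) and 0 in DESeq2 with no replicate block (0.297% of all genes), and between 0 and 9 when 1 passage was left out (0.399% to 3.13%); the cause was not tested. It was 3 with 10 counts in every library (1.44% of all genes), 3 with library totals (1.24%), 3 with TMM factors made without translation genes (1.48%, chosen after seeing the data), 4 with RLE size factors (1.6%) and 6 with limma-voom (2.07%). No setting called a member higher. The median log2 fold change of the members stayed between −0.23 and −0.40. Over 384 values of 32 named genes, 312 kept their direction and side of the threshold, 27 lost a call, 38 gained one and 7 changed sign, none of them called: Eif1b with library totals (0.038), Eif2s3y with library totals (0.019), and 5 when 1 passage was left out, where Eif1 ranged over −0.21 to 0.074 (above 0 without passage 26), Eif1b over −0.014 to 0.0039 (without passage 24), Eif2s3y over −0.18 to 0.071 (without passages 24 and 26) and Eif4ebp2 over −0.051 to 0.43 (below 0 without passage 26). In the order of levels, Eef2 took rank 3 and Eif5a rank 4 when the length of the principal transcript was used (chosen after seeing the data), which for Eif4g2, then at rank 2, is only 742 bases, and Eif5a took rank 9 without length scaling.

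The test rests on 3 cultures per condition, and the calls of members need the passage as a block. The shift is relative to all other genes, since scaling fixes the centre. Depth limits only the untested members and Eif4ebp3 and Eif4e3, which stayed under 1 CPM in every library.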
